A study of Arabidopsis thaliana with 18 samples.

Results

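The genes described here are those whose difference between the vte2 mutant and the wild type Col pointed one way after 48 h of low temperature (LT) and the opposite way after 120 h. They were found among 22810 probe sets of the Affymetrix ATH1 array, a probe set being a group of short probes that together measure 1 transcript or a few alike. For each of the 22746 probe sets that were not controls, the mean log2 value of the Col arrays was subtracted from that of the vte2 arrays at 48 h and again at 120 h. Probe sets whose differences had opposite signs were ranked by the smaller of the absolute differences, and the first 150 were taken. Of 11 genes set aside by name, 9 were among them, which left 141 members. At 48 h, 72 members were higher in vte2 and 69 were lower in vte2. The probe table gave a single gene for 53 of the 141 members (37.6%), against 59.2% of all probe sets, so 87 members are counted but not named and 1 matched several genes.

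The study compared the Arabidopsis mutant vte2, which lacks tocopherols, with its wild type Col, an accession with no introduced change. Plants were 4 weeks old, had grown at 22°C in the light and 18°C in the dark, and were moved to 7°C at the start of a light period. Leaves 9 to 11 of pooled plants were sampled early in the light period, and the 18 arrays held 3 vte2 and 3 Col samples per time point, taken after 0, 48 and 120 h in the cold. The replicates are described as independent. Only 1 mutant line was used, so an effect of that line and an effect of tocopherol loss cannot be told apart in these arrays. Of the leaf mesophyll markers, LHCB4.1 and RCA could be named, and their mean log2 values over all arrays were 12.28 and 13.20, while the root markers EXPA7, EXPA18 and PYK10 had mean log2 values of 3.36 to 3.78. No seed marker could be named, and the mutated gene is not analysed here, so the genotype labels were not checked with it.

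The direction at 120 h is in doubt. As labelled, the difference at the last time point runs against the profiles published for it. Exchanging the genotype labels at that time point alone would turn each mirrored member into one that differed the same way at both times. For that reason the text says which label an array of that time point carries, and the direction of the 120 h genotype difference is not settled. Values averaged over vte2 and Col do not depend on these labels.

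Tocopherols are lipid-soluble antioxidants made in plastids. In mature leaves their absence has little visible effect under mild conditions, whereas in the cold vte2 plants deposit callose at the phloem transfer cells, export less sugar from source leaves and accumulate carbohydrate. Exposure to cold also reprograms leaf transcription in the wild type, through calcium signals, transcription factors of the AP2/ERF, zinc finger and WRKY families, and changes in the cell wall and in primary metabolism.

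Mirrored differences were frequent over the whole array. Of the 22746 probe sets, 13831 (60.81%) had opposite signs at 48 h and 120 h and 8915 (39.19%) the same sign. At the size of the last member taken, 150 probe sets had opposite signs and 5 the same sign, and with both differences at 1 or more on the log2 scale the counts were 103 and 2. The correlation of the 48 h and 120 h differences over these probe sets was -0.508, a description over probe sets that share the same 12 arrays, while the 0 h difference had a correlation of -0.036 with the 48 h difference and of -0.011 with the 120 h difference. The last probe set taken, At5g25930, had log2 differences of 0.88 at 48 h and -1.12 at 120 h. The first one outside, At5g58570, had 0.88 and -1.23, so the values on either side of the limit are nearly equal.

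**Figure D1:**
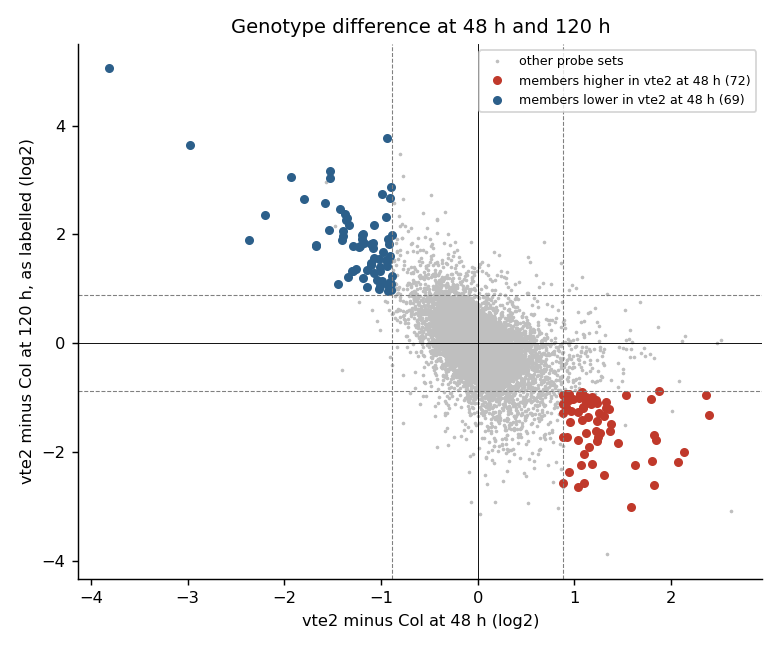
Each point is a probe set, with the log2 difference of vte2 minus Col at 48 h on the x axis and at 120 h, as labelled, on the y axis; dashed lines mark the size of the last probe set taken. The 72 members higher in vte2 at 48 h lie at the lower right, the 69 members lower in vte2 at 48 h at the upper left, and the other 2 corners are nearly empty.

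The 72 members higher in vte2 at 48 h had a median log2 difference of 1.16 there (0.88 to 2.39) and of -1.28 at 120 h as labelled (-3.01 to -0.88). The 69 members lower in vte2 at 48 h had medians of -1.14 at 48 h (-3.81 to -0.89) and 1.78 at 120 h (0.96 to 5.05). The second set was thus larger at 120 h in 64 of its 69 members, while the first was larger at 120 h in 45 of 72. Since the members were chosen by these differences, they carry no test.

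The vte2 arrays did not overlap the Col arrays in 130 of the 141 members at 48 h and in 141 of 141 at 120 h as labelled, against a background of 16.1% and 36.6% of all probe sets. At 48 h these were 62 of the 72 higher members and 68 of the 69 lower ones, and of all probe sets 7.82% had every vte2 array above and 8.32% every one below the Col arrays. At both times and in opposite directions this held for 130 members, against 8.10% of all probe sets, and 0.837% of all probe sets were separated in the same direction at both times. The 11 members whose arrays overlapped at 48 h were 10 of the higher set and 1 of the lower set. Since the rule used these contrasts, nothing is read from the counts.

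The distance between the levels at 48 h and 120 h differed between the sets. In the lower set, arrays labelled vte2 at 120 h had a median absolute log2 distance per member of 0.62 to Col and of 1.40 to vte2 at 48 h, and arrays labelled Col had 0.61 to vte2 and 1.48 to Col at 48 h, so both labels were closer to the other genotype. In the higher set, arrays labelled vte2 at 120 h had 1.27 to Col and 2.53 to vte2 at 48 h. Arrays labelled Col at 120 h had 1.51 to vte2 and 1.26 to Col at 48 h there, and were thus closer to their own label. The rule used these levels, so the distances are a description.

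**Figure D2:**
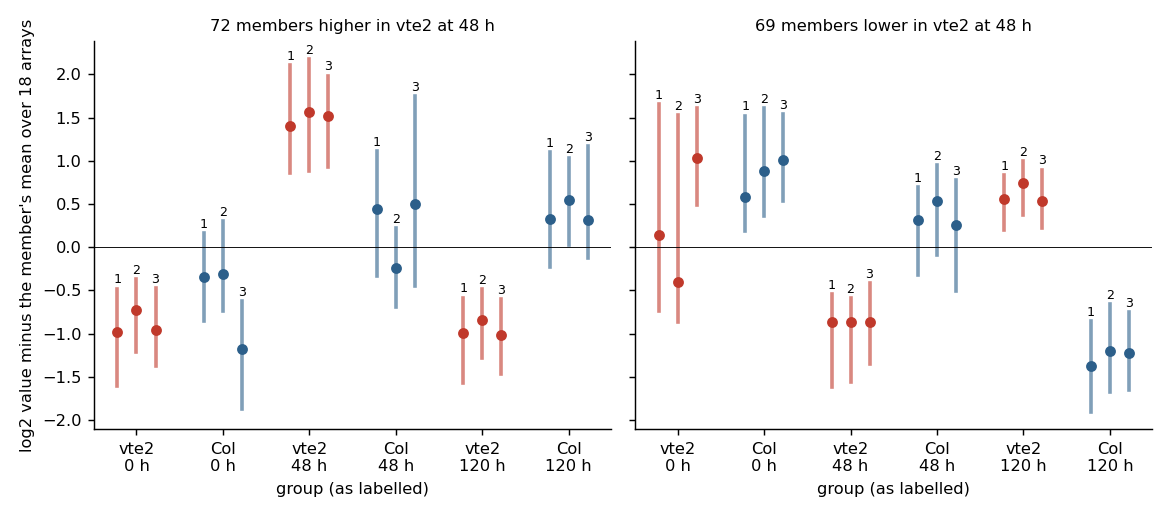
Points are the median over members of the log2 value minus each member's mean over 18 arrays, bars span the middle 50% of members, and the digit is the replicate number; vte2 is red and Col blue, as labelled. In the higher set the vte2 arrays at 48 h lie at 1.40 to 1.57 and replicate 2 of Col at 48 h lies at -0.24, below the other Col arrays of that time at 0.44 and 0.50.

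In the higher set, 1 wild-type array stood apart. The medians over these members, centred on each member's mean, were 1.40, 1.57 and 1.52 in the vte2 arrays at 48 h, against 0.44, -0.24 and 0.50 in the Col arrays, and replicate 2 of Col was the lowest Col array for 52 of the 72 members. Between replicates the median SD of these members was 0.140 in vte2 and 0.661 in Col at 48 h, against 0.125 and 0.128 over all probe sets. Without replicate 2 of Col the median difference at 48 h was 0.88 in place of 1.16, 28 of 72 members were smaller by more than 1.5-fold and 0 changed sign. If the rule was applied without that array, 101 of the 141 members were found again, 40 of the 72 higher ones and 61 of the 69 lower ones. The part of this array in the membership of the higher set is given by these values, and its cause was not tested.

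In the higher set, 3 of the named members have roles in the cell wall. CCR2, annotated as a cinnamoyl-CoA reductase, an enzyme of the lignin monomer pathway, had log2 values of 7.87, 7.52 and 7.81 in vte2 at 48 h, against 6.27, 4.47 and 7.00 in Col. At 120 h the arrays labelled vte2 gave 3.97, 3.77 and 3.81 and those labelled Col 5.47, 5.63 and 5.55. The groups did not overlap at either time, and replicate 2 of Col was by far the lowest at 48 h. In whole leaves, as for all genes below, fewer cells of a type and less RNA per cell cannot be told apart. In limma's linear model of all 18 arrays, with p-values adjusted over all probe sets, CCR2 averaged over the genotypes rose at 48 h by 2.53 ± 0.30 (log2, SE; limma adjusted p = 4.19e-06) and at 120 h stood at 0.41 ± 0.30 above 0 h, which did not pass (limma adjusted p = 0.313).

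ATPMEPCRB, also known as PME41, a pectin methylesterase that acts on the pectin of the wall, had 9.71, 9.53 and 9.40 in vte2 at 48 h, against 8.70, 7.99 and 8.31 in Col. At 120 h it had 6.67, 5.88 and 6.56 in arrays labelled vte2, against 7.09, 7.61 and 7.67 in arrays labelled Col. No overlap was seen at either time, although the 0 h arrays ranged widely, with 9.00, 6.37 and 5.88 in vte2 and 7.55, 7.75 and 4.78 in Col. Its average over the genotypes rose by 2.05 ± 0.52 at 48 h (limma adjusted p = 0.00465) and fell by 2.03 ± 0.52 between 48 h and 120 h (limma adjusted p = 0.00769).

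EXLA1, an expansin-like protein of the family that loosens cell walls, had one of the widest differences at 48 h, with 9.20, 9.17 and 8.81 in vte2 against 7.75, 5.66 and 6.71 in Col. At 120 h the values were 6.25, 5.13 and 6.17 in arrays labelled vte2 and 6.50, 6.86 and 7.05 in arrays labelled Col. Its highest group means were those before LT treatment, with wide gaps between replicates, at 11.95, 9.54 and 7.13 in vte2 and 10.77, 10.90 and 6.26 in Col. Averaged over the genotypes it fell by 3.10 ± 0.81 at 120 h (limma adjusted p = 0.00689).

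The named regulators of the higher set were WRKY53 and STZ. WRKY53, a transcription factor of defence and senescence, had 8.03, 7.76 and 7.58 in vte2 at 48 h, against 6.92, 6.63 and 6.11 in Col. In arrays labelled vte2 at 120 h it had 5.41, 6.31 and 5.93, against 7.78, 7.57 and 7.44 in arrays labelled Col. The groups did not overlap at either time. WRKY53 rose at 48 h by 1.1 ± 0.25 averaged over the genotypes (limma adjusted p = 0.00182), and its value of 0.67 ± 0.25 at 120 h (limma adjusted p = 0.0452) did not pass in 14 of the alternatives, where the adjusted p reached 0.114.

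STZ, a zinc finger repressor induced by cold, salt and drought, had 10.04, 10.02 and 9.82 in vte2 at 48 h, against 8.97, 7.57 and 9.35 in Col. The 120 h values were 6.52, 7.19 and 6.88 in arrays labelled vte2 and 7.94, 7.98 and 7.92 in arrays labelled Col. Before LT treatment the order was that of 120 h as labelled, with 6.89, 7.09 and 6.81 in vte2 and 9.38, 9.79 and 7.02 in Col, so that replicate 3 of Col was near the vte2 arrays and the other Col arrays were far above them. Averaged over the genotypes STZ rose by 1.46 ± 0.39 at 48 h (limma adjusted p = 0.00594) and fell by 1.89 ± 0.39 from there to 120 h (limma adjusted p = 0.00149).

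Among defence products, PDF1.2, a plant defensin used as a marker of jasmonate and ethylene signalling, had 7.45, 7.32 and 7.35 in vte2 at 48 h, against 5.12, 6.92 and 4.69 in Col. At 120 h it had 8.93, 9.26 and 9.15 in arrays labelled vte2, against 10.14, 10.20 and 10.07 in arrays labelled Col. Here replicate 2 of Col was the highest Col array at 48 h, the reverse of CCR2 and STZ. Averaged over the genotypes PDF1.2 rose at both times, by 1.59 ± 0.31 at 48 h (limma adjusted p = 0.000592) and by 4.74 ± 0.31 at 120 h (limma adjusted p = 2e-08).

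BGLU25, a member of the beta-glucosidase family, had 10.05, 10.13 and 10.23 in vte2 at 48 h, against 9.27, 9.18 and 8.61 in Col. At 120 h it had 8.70, 8.48 and 8.67 in arrays labelled vte2, against 10.31, 10.24 and 10.23 in arrays labelled Col. The groups did not overlap at either time, and the replicates were close in each LT group except Col at 48 h (SD 0.36). The average over the genotypes rose by 2.73 ± 0.23 at 48 h (limma adjusted p = 1.44e-07) and by 2.59 ± 0.23 at 120 h (limma adjusted p = 5.39e-07).

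TET9, a tetraspanin, which is a small membrane-spanning protein, was a dim member, with 5.36, 5.02 and 5.20 in vte2 at 48 h, against 4.68, 3.31 and 4.64 in Col. At 120 h it had 3.21, 3.39 and 3.16 in arrays labelled vte2, against 4.20, 4.32 and 4.33 in arrays labelled Col. Its average rose by 1.12 ± 0.19 at 48 h (limma adjusted p = 0.000147), and the 120 h value of 0.19 ± 0.19 did not pass (limma adjusted p = 0.463).

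At5g22860, annotated as a serine carboxypeptidase of the S28 family, showed the mirror with little spread. It had 6.68, 6.44 and 6.71 in vte2 at 48 h, against 5.17, 5.18 and 5.33 in Col. Arrays labelled vte2 at 120 h had 4.87, 5.33 and 4.85 and arrays labelled Col 6.29, 6.60 and 6.59. In both times the lower group stayed near the 0 h range of 4.77 to 5.22 in vte2 and 4.95 to 5.20 in Col.

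Several members of the higher set have a locus name only. At1g65500 had the largest smaller difference among the named members, with log2 differences of 2.13 at 48 h and -1.99 at 120 h as labelled. At4g39670 had the largest LT response of the named members at 48 h, 5.33 ± 0.38 averaged over the genotypes (limma adjusted p = 1.61e-08), and stood at 1.41 ± 0.38 at 120 h (limma adjusted p = 0.00797). At2g41380 rose by 3.67 ± 0.19 and At1g74360 by 3.0 ± 0.38 at 48 h (limma adjusted p = 6.58e-10 and 9.82e-06), and both were close to their 0 h range again in arrays labelled vte2 at 120 h. In At4g39670 and At1g74360 the vte2 and Col arrays overlapped at 48 h, and replicate 2 of Col was the lowest array, at 8.63 and 5.81. At1g74010 had differences of 1.22 at 48 h and -1.62 at 120 h, and At5g13880 of 1.45 and -1.83. The average of At5g13880 over the genotypes moved by 0.33 ± 0.16 at 48 h (limma adjusted p = 0.0990), and that of At1g72240 by 0.25 ± 0.22 (limma adjusted p = 0.373). Neither passed the test of the averaged response, although their genotype differences were above 1. Opposite changes cancel in that average, so it does not show a missing LT response. From 0 h to 48 h the mean of At5g13880 went from 4.04 to 5.32 in vte2 and from 4.47 to 3.86 in Col. That of At1g72240 went from 5.47 to 6.44 in vte2 and from 5.81 to 5.35 in Col.

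**Figure D3:**
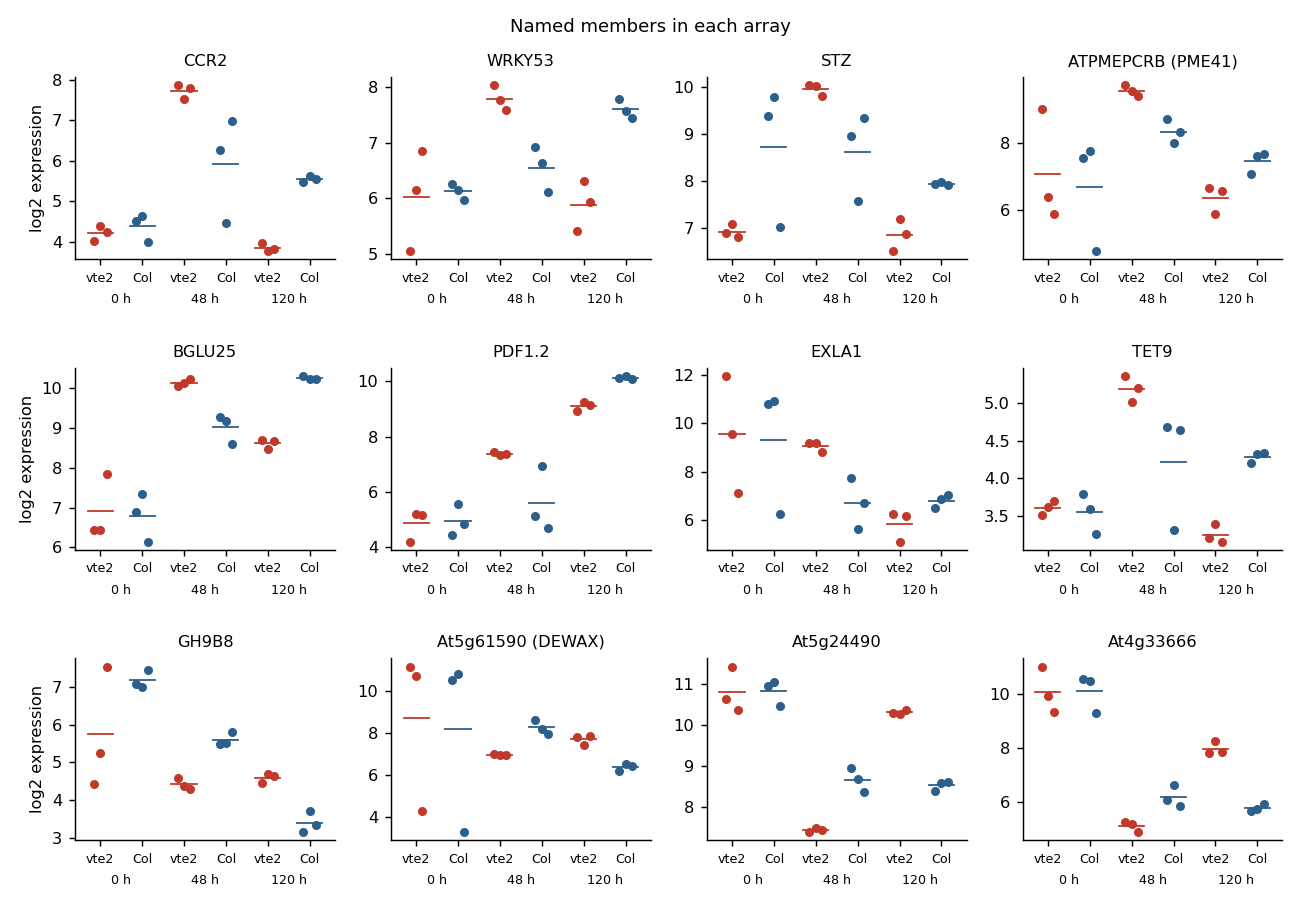
Log2 expression of 12 named members in each of the 18 arrays, with a line at each group mean; vte2 is red and Col blue, as labelled, and each panel has its own y axis. In 8 panels, CCR2 to TET9, vte2 lies above Col at 48 h and below it at 120 h, and in the other 4 the order is turned.

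In the lower set, GH9B8, of the glycosyl hydrolase family that holds endoglucanases, had 4.59, 4.37 and 4.30 in vte2 at 48 h, against 5.49, 5.53 and 5.81 in Col. At 120 h it had 4.44, 4.70 and 4.64 in arrays labelled vte2, against 3.15, 3.71 and 3.34 in arrays labelled Col. The arrays did not overlap at either time, and at 0 h replicates 1 and 2 of vte2, at 4.43 and 5.26, were below all Col arrays, at 7.09, 7.01 and 7.47, while replicate 3 of vte2 had 7.55. Averaged over the genotypes GH9B8 fell by 1.45 ± 0.36 at 48 h (limma adjusted p = 0.00399) and by 2.47 ± 0.36 at 120 h (limma adjusted p = 6.02e-05).

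At5g61590, known as DEWAX, an AP2/ERF factor that represses wax synthesis, had 7.00, 6.98 and 6.95 in vte2 at 48 h, against 8.64, 8.21 and 7.97 in Col. At 120 h the arrays labelled vte2 had 7.83, 7.43 and 7.86 and those labelled Col 6.17, 6.55 and 6.44. Replicates within a group were closer under LT treatment than before it. At 0 h the values were 11.17, 10.74 and 4.30 in vte2 and 10.55, 10.81 and 3.28 in Col, so replicate 3 of both genotypes was lower than the others by a wide margin, and the LT response at 48 h of -0.85 ± 1.23 did not pass (limma adjusted p = 0.606).

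At5g24490, annotated as a putative 30S ribosomal protein, had 7.39, 7.49 and 7.45 in vte2 at 48 h, against 8.95, 8.69 and 8.37 in Col. At 120 h it had 10.28, 10.28 and 10.35 in arrays labelled vte2, against 8.40, 8.58 and 8.61 in arrays labelled Col. Both genotypes had started alike, at 10.63, 11.42 and 10.36 in vte2 and 10.95, 11.04 and 10.46 in Col. The average fell by 2.75 ± 0.16 at 48 h (limma adjusted p = 1.71e-09) and then rose by 1.36 ± 0.16 up to 120 h (limma adjusted p = 1.12e-05).

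At4g33666, for which no role is given here, had the largest fall of the named members at 48 h, -4.43 ± 0.27 averaged over the genotypes (limma adjusted p = 2.86e-09). It had 5.27, 5.19 and 4.89 in vte2 at 48 h, against 6.07, 6.62 and 5.86 in Col. At 120 h the arrays labelled vte2 had 7.79, 8.26 and 7.83, against 5.67, 5.75 and 5.92 in arrays labelled Col. From 48 h to 120 h the average rose by 1.22 ± 0.27 (limma adjusted p = 0.00232), and only the arrays labelled vte2 at 120 h lay above both genotypes at 48 h.

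At1g21440, annotated as a mutase family protein, had 7.45, 7.66 and 7.66 in vte2 at 48 h, against 8.50, 8.84 and 8.96 in Col, and 8.52, 9.18 and 8.81 in arrays labelled vte2 at 120 h, against 6.92, 7.11 and 6.97 in arrays labelled Col. Lists published from these same arrays include At1g21440, At5g24490, At1g65500, At5g13880 and At5g22860, so their 48 h direction is not independent evidence. Of the members with a locus name only, At5g63180 and At2g29290 fell at 48 h, with changes of -2.0 ± 0.17 and -3.29 ± 0.36 (limma adjusted p = 1.25e-07 and 2.09e-06) and rose from 48 h to 120 h by 0.90 ± 0.17 and 1.91 ± 0.36 (limma adjusted p = 0.000740 and 0.000781). At4g21870 and At3g06070 fell at 48 h, with changes of -3.48 ± 0.52 and -3.54 ± 0.84 (limma adjusted p = 4.86e-05 and 0.00282), and their later changes of -0.24 ± 0.52 and 0.17 ± 0.84 did not pass (limma adjusted p = 0.814 and 0.926). The 0 h arrays of At3g06070 were split, with 10.95, 9.46 and 5.73 in vte2 and 9.71, 9.79 and 5.09 in Col. Its replicate 3 values at 0 h lay within the Col range at 48 h, which held 6.26, 6.23 and 4.64. At1g73600 and At3g26960 were lower at 120 h than at 48 h, with changes from 0 h of -2.45 ± 0.31 and -1.71 ± 0.27 at 120 h (limma adjusted p = 1.49e-05 and 0.000118). At1g16310 went the other way and rose at 48 h by 0.72 ± 0.20 (limma adjusted p = 0.00833). The fall of At3g15450 at 48 h, -3.29 ± 1.24 (limma adjusted p = 0.0416), did not pass in 12 of the alternatives, where the adjusted p reached 0.107.

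The LT response averaged over the genotypes was not the value used by the rule, and it was tested. It comes from the same arrays, however, so a change in 1 genotype alone also moves it. At5g22860 is such a case, with Col at 48 h near its 0 h range, whereas in At5g24490 both genotypes fell. The counts below are of averages and do not show that both genotypes changed. They are in part tied to the direction by which the rule chose the members. At 48 h, 101 of the 141 members passed, 60 higher and 41 lower, against a background of 45.4% of all probe sets. Of the 72 members higher in vte2, 54 rose with LT treatment (75%, against 20.8% of all probe sets) and 2 fell, with a median of 1.53. Of the 69 members lower in vte2, 39 fell (56.5%, against 24.6%) and 6 rose, with a median of -0.78, while the median of all probe sets was -0.08. Members are brighter than most probe sets, with 8 of them among the 40% dimmest. When those dim probe sets were left out of the fit, the shares were 73.8% rising in the higher set and 57.4% falling in the lower set, against 31.6% rising and 32.1% falling over the 13686 probe sets kept.

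At 120 h, 78 members passed, 38 higher and 40 lower, against 37.6% of all probe sets. In the higher set 34 rose (20.1% of all probe sets did) and 3 fell, with a median of 0.48, and in the lower set 4 rose and 37 fell (17.5% of all probe sets), with a median of -0.95. Between 48 h and 120 h, 71 members passed, 20 higher and 51 lower, against 29.7% of all probe sets. The fall was mainly in the higher set, where 42 of 72 fell (58.3%, against 12.7% of all probe sets) with a median of -1.11. In the lower set 14 rose (20.3%) and 9 fell (13.0%), with a median of -0.02, shares near the 17.0% and 12.7% of all probe sets.

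Averaged over the genotypes, the sets followed different courses, which a single genotype need not follow. Of the 72 higher members, 39 rose at 48 h and then fell by 120 h, a course that 9.43% of all probe sets had. At both steps 3 rose, PDF1.2 and At1g65500 among them (1.60% of all probe sets did), and 12 rose and then passed in neither direction (9.76%). The means of PDF1.2 rose at both steps under each label. Those of At1g65500 at 0, 48 and 120 h were 5.89, 8.02 and 7.14 in vte2 and 5.83, 5.89 and 9.13 in Col. As labelled, vte2 thus fell at the second step and Col hardly moved at the first. In the lower set, 14 fell and then rose (9.92% of all probe sets), 21 fell and then passed in neither direction (14.2%) and 4 fell at both steps (0.504%). The medians of the levels averaged over the genotypes were 5.12, 6.89 and 5.76 at 0, 48 and 120 h in the higher set and 7.66, 6.49 and 6.58 in the lower set.

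**Figure D4:**
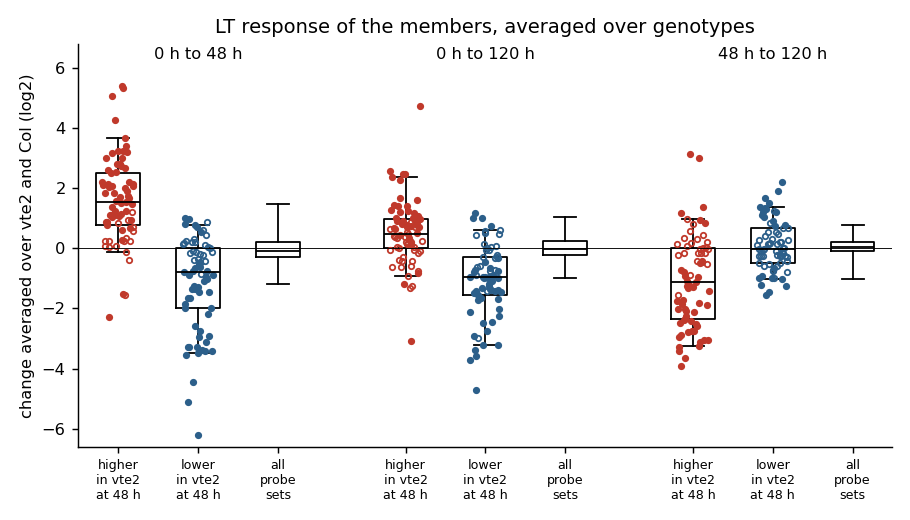
Log2 change averaged over vte2 and Col between time points, for the members higher in vte2 at 48 h (red), those lower in vte2 at 48 h (blue) and all probe sets; filled points passed the test (limma adjusted p under 0.05), boxes span the middle 50%, the line is the median and whiskers reach the 5th and 95th percentiles. At 48 h the medians were 1.53, -0.78 and -0.08.

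Before LT treatment 0 of the 141 members passed the test of vte2 against Col (limma, adjusted p), against 0.00877% of all probe sets. An unadjusted limma p under 0.05 was found for 25 members. The share of all probe sets at that threshold is not given here, so nothing is read from this count. The differences leaned to 1 side all the same, since 102 of 141 were negative, that is lower in vte2, 49 in the higher set and 53 in the lower set, against about even signs over all probe sets (50.3% positive). All vte2 arrays lay below all Col arrays for 11 members and above them for 1, against 3.06% and 3.64% of all probe sets (6.70% in either order).

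Replicate 3 of both genotypes stood apart from the other 0 h arrays, and the members were strongly touched. Its median absolute shift from the other replicates was 0.87 (log2) over the members and 0.21 over all probe sets, and 29.1% of the members were over 2-fold up or over 2-fold down there in both genotypes alike, 18 up and 23 down, against 6.99% of all probe sets. At3g15450 shifted by -7.02 in vte2 and by -7.15 in Col, and At5g61590 by -6.66 and -7.40. With both replicate 3 arrays left out, 36 members passed at 0 h, 1 higher in vte2 and 35 lower, against 4.57% of all probe sets (1.99% higher and 2.58% lower). Leaving out replicate 3 of vte2 or of Col alone gave 17 and 15 members, all of them lower in vte2, against 2.59% and 1.53% of all probe sets. The part of replicate 3 in the count of 0 is given by these values, and what set these arrays apart was not tested. The only named flower marker, PI, had a log2 level of 7.21 in vte2 and 5.70 in Col at 0 h, and the guard cell and root marker sums lay between 6.07 and 6.25 and between 5.24 and 5.30; their part in the 0 h differences was not tested. The phloem marker SWEET11 had log2 levels of 10.62 in vte2 and 10.95 in Col at 0 h, 10.45 in vte2 and 10.78 in Col at 48 h, and 11.17 in arrays labelled vte2 and 10.13 in arrays labelled Col at 120 h. It was thus lower in vte2 at 0 h and at 48 h and higher under that label at 120 h. SWEET11 was the only 1 of 12 phloem markers that could be named. Opposite signs at 48 h and 120 h were found for 60.81% of the probe sets that were not controls, so nothing is read from its signs. The summed mesophyll markers had 14.17 in vte2 and 14.22 in Col at 0 h, 13.16 in vte2 and 13.46 in Col at 48 h, and 14.07 in arrays labelled vte2 and 13.85 in arrays labelled Col at 120 h. PI had 6.19 in vte2 and 6.15 in Col at 48 h, and 5.28 in arrays labelled vte2 and 6.26 in arrays labelled Col at 120 h. The part of these markers in the mirrored differences was not tested.

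The 35 members lower in vte2 without replicate 3 came from both sets, 13 of the 72 higher at 48 h and 22 of the 69 lower at 48 h. STZ differed by -2.60 ± 0.40 (limma adjusted p = 0.00176) and GH9B8 by -2.20 ± 0.23 (limma adjusted p = 8.74e-05). By replicates 1 and 2 at 0 h, STZ was thus below Col before the cold and above it at 48 h. GH9B8 was below Col at both times. With all 0 h arrays neither passed at 0 h (limma adjusted p = 0.359 and 0.437). At3g26960 and At1g21440 of the lower set and At1g72240 of the higher set differed by -1.45 ± 0.33, -0.88 ± 0.19 and -1.02 ± 0.23 (limma adjusted p = 0.0214, 0.02 and 0.0234). At3g45160 and At4g27280, chosen after their values were seen, had the widest differences of the lower and the higher set, -3.20 ± 0.24 and -3.23 ± 0.55 (limma adjusted p = 3.45e-06 and 0.00370).

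**Figure D5:**
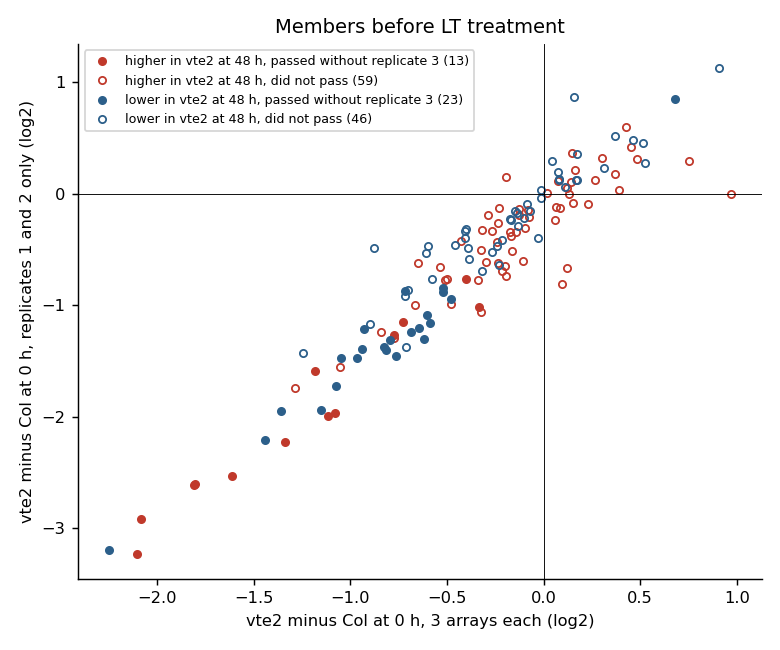
Log2 difference of vte2 minus Col at 0 h for each of the 141 members, from 3 arrays each (x axis) and from replicates 1 and 2 only (y axis); red members were higher and blue ones lower in vte2 at 48 h, and filled points passed without replicate 3 (limma adjusted p under 0.05). Of the 36 filled points, 35 lie below 0.

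The same arrays touch the LT response, which is measured from 0 h. Without both replicate 3 arrays 115 members passed at 48 h, against 50.5% of all probe sets. Of the higher members 56 rose (77.8%, against 23.5% of all probe sets), and in the lower set 35 fell (50.7%, against 27.1%) and 19 rose in place of 6 (27.5%). At 120 h, 103 passed, against 45.7% of all probe sets. Of the higher members 36 rose (50%, against 24.3% of all probe sets) and 13 fell in place of 3 (18.1%, against 21.4%), and in the lower set 41 fell (59.4%).

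Gene lists drawn up for this tissue and treatment held 6 members among 308 named probe sets (1.95%), while 53 of all 13513 probe sets with a single gene (0.392%) were members. The lists were drawn up with results of these arrays known, so nothing is read from these shares. Of 36 lists, 28 had at least 1 named probe set and 6 had 1 member each, all in the higher set: WRKY53 of 7 WRKY factors, PDF1.2 of 10 plant defensins, EXLA1 of 29 expansins and XTH enzymes, ATPMEPCRB of 3 pectin genes, STZ of 6 cold-regulated genes and TET9 of 15 tetraspanins. Of the cold-regulated genes 5 rose and 0 fell at 48 h averaged over the genotypes, and of the WRKY factors 3 rose and 0 fell. The other lists with a member were mixed. Of the plant defensins 3 rose and 1 fell, of the expansins and XTH enzymes 4 rose and 6 fell. The pectin genes had 1 and 1, and the tetraspanins 2 and 2. Over all probe sets 20.8% rose and 24.6% fell. None of the 29 named photosystem and light harvesting genes, of the 51 UDP-glycosyltransferases or of the 14 glutathione transferases was a member. Genes set aside by name could not be members, and some belong to the glutathione transferase, plant defensin and tetraspanin families. The member counts of these lists are thus limited by that choice. The 53 named members lay on all 5 chromosomes, with 18, 6, 8, 10 and 11 on chromosomes 1 to 5, and no 2 of them were within 10 genes of each other.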

How the data were processed

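Leaf RNA of vte2 and Col was measured on 18 ATH1 arrays. The deposited log2 values were made by the authors with RMA in the affy package, which corrects the background, normalizes by quantiles over the arrays and summarizes perfect match probes, and they were used as deposited. Array medians lay between 4.98 and 5.18; the number of arrays limits the precision. Normalization by quantiles removes any shift common to all genes.

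A model of 6 group means over all 18 arrays (12 residual degrees of freedom) was estimated in limma 3.58.1 (R 4.3.3) using Benjamini-Hochberg adjustment over 22810 probe sets within each comparison and a threshold of 0.05. Genotype at 0 h and the changes between times averaged over vte2 and Col were tested; genotype differences at 48 and 120 h chose the members and were described. The steps were tested on simulated data. Members and lists were chosen with earlier results of these data known. A single gene was given to 13513 probe sets, several to 503, and 8794 were not listed.

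Members named in the text, some with array values and some with differences only, were the 12 in each direction with the largest smaller difference, those past the test at 0 h, the 4 in each direction with the largest LT response at 48 h and at 120 h, and up to 4 of each list. Labels number the replicates. Same-numbered vte2 and Col arrays deviated together at 0 h (correlations 0.397, 0.482 and 0.791) but not in every pair at 48 h (0.205, 0.054 and 0.302) or 120 h. At 0 h, Col 1 with vte2 2 (0.496) and Col 2 with vte2 1 (0.462) gave correlations as high, and replicate 3 stood apart. These values thus do not show that replicates 1 and 2 are paired by number. A block pairing same-numbered arrays within each time was an alternative for the 0 h test only. Alternatives covered normalization, dim probe sets, array weights, the prior, a replicate block, which arrays were fitted, the list size and leaving out arrays. No sequences or genome were used here.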

Additional observations from a re-analysis of the deposited data

Results flagged for a closer look

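For 130 of the 141 members all vte2 arrays lay on one side of all Col arrays at 48 h and on the opposite side at 120 h as labelled, 62 in the higher set and 68 in the lower set. Over all probe sets the share was 8.10%. The count is listed because the genotype effect at 1 time point goes against that at the other in every array. The rule chose the members for this pattern, so nothing is read from it, the difference between the times was not tested, and the 120 h labels are in doubt.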

How the results depend on the processing

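The members found again, of 141, were 138 with cyclic loess, 136 with median centring, 133 without the 40% dimmest probe sets, 113 with group medians and 69 when 75 probe sets were taken in place of 150. They ranged from 101 to 139 when single arrays were left out, the lowest without replicate 2 of Col at 48 h, and were 116, 94 and 113 without replicates 1, 2 and 3 of all 4 groups. The count of members passing at 0 h, 0, was 1 with array weights, 0 to 17 when single arrays were left out (17 without replicate 3 of vte2 and 15 without that of Col) and 36 without both replicate 3 arrays. With same-numbered vte2 and Col arrays taken as pairs it was 0, although the values at 0 h do not show that replicates 1 and 2 pair by number. For the changes between times a different block was used, an effect of replicate number shared by all groups and times. The labels do not say that the numbers link arrays across times. That block gave 103 at 48 h, 81 at 120 h and 74 from 48 h to 120 h, in place of 101, 78 and 71, no change by over 1.5 times. Over all alternatives these counts ran from 88 to 115, from 69 to 103 and from 64 to 101. Of 1220 values of named members under alternatives, 1163 kept their direction and side of the threshold, 57 kept the direction only and 0 reversed; those 57 belong to At1g73600, At3g15450, At3g26960, GH9B8 and WRKY53. With 3 arrays a group, and replicate 3 far from the others at 0 h, a difference at 0 h that is smaller than this spread was not detectable.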
